A study of Mus musculus with 6 samples.

Results

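A set of 10 genes of leukocyte adhesion was followed in sorted large peritoneal macrophages: the integrin alpha subunits Itgam, Itgal, Itga4 and Itga6, the integrin beta subunits Itgb2 and Itgb1, the counter-receptors Icam1 and Icam2, the selectin Selp and the hyaluronan receptor Cd44. They were taken by gene name from the deposited table and are 10 of its 20336 genes. All 10 passed the filter on low counts, with 219 to 58422 counts per library. The comparison is of 3 libraries of PAC knockout macrophages, whose genotype label reads Cxcr3-PAC-/- whereas the design names a Cx3cr1 driver. These were set against 3 libraries of PAC F/F macrophages, which carry the floxed gene intact (floxed control). PAC is the proton-activated chloride channel. Every mouse of both groups had been given E. coli into the peritoneum 30 min before lavage, and libraries from mice given PBS were not analysed here. The cells were stained and sorted as large peritoneal macrophages. The labels give neither the age of the mice nor whether a library is 1 mouse or a pool. The p-values below therefore rest on library-to-library spread, part of which may be technical. A driver is named for the knockout alone, so an effect of the driver allele and one of PAC loss cannot be told apart.

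Integrins are pairs of an alpha and a beta chain that switch between a resting and a binding form, so that a cell can attach within seconds of a signal. The beta chain Itgb2 pairs with Itgam to form Mac-1 (CD11b/CD18), which binds fibrinogen, ICAM-1 and complement-coated particles and also serves as a phagocytic receptor, and with Itgal to form LFA-1, the main ICAM receptor of lymphocytes. The beta chain Itgb1 pairs with Itga4, a receptor for VCAM-1 and fibronectin, and with Itga6, a laminin receptor. In the peritoneum, resident macrophages float free and attach to the lining and to each other within hours of infection or injury. CD11b and ICAM-2 are also surface markers by which large peritoneal macrophages are recognised.

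Total depth was 15981530 to 20648832 counts per library. The targeted gene, listed as Tmem206, had 4.27, 6.13 and 5.49 CPM (counts scaled to library size, with TMM factors) in the knockout libraries, against 6.33, 12.2 and 8.16 CPM in the control libraries (log2 fold change -0.75, SE 0.31, edgeR adjusted p = 0.997); the counts cover the whole gene and not the deleted part alone. The label of the cells was borne by their markers: all 13 large peritoneal macrophage markers were present in every library. Icam2, Itgam and Selp are among these markers and also among the 10 adhesion genes, so they are not independent evidence for the label. Of the other markers, the macrophage receptor Adgre1 had 2134 to 2687 CPM in the knockout and 1792 to 2380 CPM in the control. Gata6, the lineage factor of these macrophages, had 59.4 to 94.8 CPM in the knockout and 61.5 to 69.2 CPM in the control. Knockout over control, 11 of the 13 markers were higher and 2 lower, and the median of their log2 fold changes was 0.145. By edgeR 0 were called, and 2 had an unadjusted p under 0.05 (15.4%, against 4.18% of all tested genes). Only Naip1 had groups without overlap, at 229 to 284 CPM in the knockout and 199 to 225 CPM in the control. Whether this lean bears on the 10 adhesion genes was not tested. The summed level of the 13 B cell markers was 77.2 to 339 CPM in the knockout and 51.6 to 566 CPM in the control; it was highest in floxed control replicate 2 (566 CPM) and knockout replicate 1 (339 CPM). The 9 mast cell and eosinophil markers summed to 140 to 251 CPM in the knockout and 57.7 to 147 CPM in the control, and all 7 of those tested had higher values in the knockout (median log2 fold change 1.59; edgeR called 0, with 2 at an unadjusted p under 0.05). Most of that sum was the histamine-forming enzyme Hdc, at 138 to 216 CPM in the knockout and 52.2 to 139 CPM in the control, and 5 of the 9 markers were at 0 in some library. The 10 neutrophil markers summed to 5.38 to 16.5 CPM in the knockout and 3.05 to 5.15 CPM in the control, without overlap, with 9 at 0 in some library. Their part in the levels of the 10 adhesion genes was not tested. Summed T and NK cell, dendritic cell and mesothelial markers overlapped between the groups. Platelet and endothelial markers are given below, beside Selp. In bulk RNA, fewer cells of a type and less RNA per cell cannot be told apart.

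The question put to the genes was whether loss of PAC goes with a different RNA level in macrophages 30 min into infection. None of the 10 passed edgeR's quasi-likelihood test over 12786 genes, of which 0% were called (0 higher, 0 lower); the smallest adjusted p among them was 0.997. Before adjustment 0 of the 10 had a p under 0.05, against 4.18% of all tested genes. DESeq2 and limma-voom also called 0 of the 10. The fold changes lay above 0 for 7 genes and below 0 for 3, with a median log2 fold change of 0.10 against -0.0079 over all tested genes. The 95% intervals of the fold changes were narrow for 9 of the 10 genes, which lay wholly within a 1.5-fold change in either direction; Itgal, the least abundant, reached 1.55-fold on the upper side. The groups did not overlap for 1 of the 10 (10%), Itga4, which was lower in the knockout. Of all tested genes 9.33% did not overlap, 4.47% higher and 4.86% lower in the knockout.

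**Figure D1:**
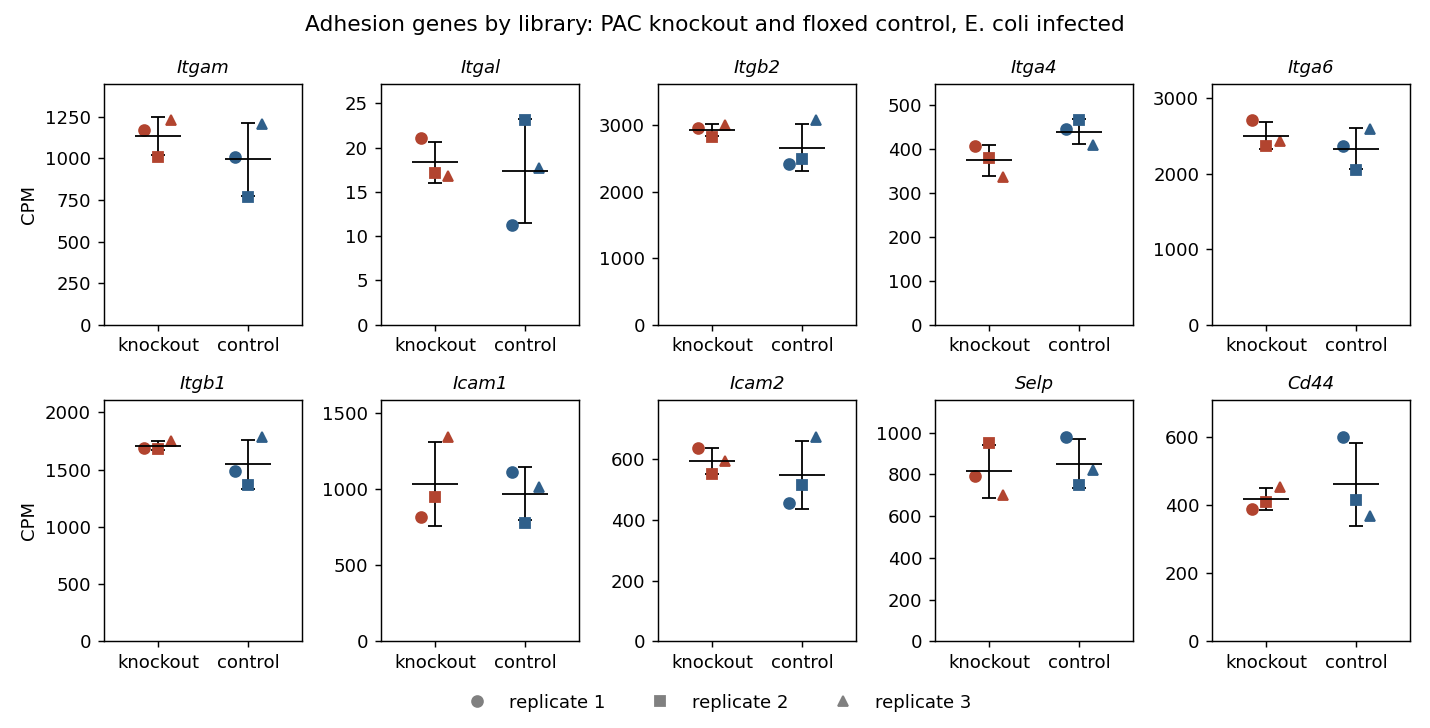
Level of each adhesion gene in CPM (vertical axes start at 0) in the 3 knockout libraries (left, red) and the 3 floxed control libraries (right, blue), with mean and SD; symbols mark the replicate number. The groups overlap in each panel except that of Itga4, where the highest knockout library (407.8 CPM) sits just under the lowest control library (408.7 CPM).

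Itgam, the alpha chain of Mac-1 (ENSMUSG00000030786, GRCm38 chromosome 7, 128062640 to 128118491, plus strand), had 1173, 1008 and 1229 CPM in the knockout libraries, against 1009, 769.7 and 1206 CPM in the control libraries. Floxed control replicate 2 was the lowest of the 6, and the other 5 overlapped. The means were 1137 ± 115 CPM in the knockout and 994.9 ± 218 CPM in the control (SD, n = 3 each), a log2 fold change of 0.19 (SE 0.17, 95% interval -0.18 to 0.57; edgeR quasi-likelihood adjusted p = 0.997). Without floxed control replicate 2 it was 0.039. In GENCODE M21, 3450 of the 5024 exonic bases of Itgam (68.7%) are shared with Gm49368, a gene model on the same strand that had a mean of 15.7 counts. The handling of reads in shared exons is not stated, so the level of Itgam is uncertain.

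The region before the start of Itgam is shown because the gene is the surface marker of the sorted cells, with that of Itga4, the gene with the fold change farthest from 0, and of Icam1, the gene with the widest spread among the abundant ones. The table of RefSeq promoters (GRCm38.p6) matched 6 of the 10 genes, and the 250 bases before the RefSeq start are given 5′ to 3′ on the strand of the gene. Capitals mark matches, on either strand, to 4 motifs. The core bound by PU.1, the myeloid lineage factor, was searched as GAGGAA. The GC box, a common promoter element, was searched as GGGCGG. The TATA box was searched as TATAAA, and the NF-kappaB motif as GGAAATTCC; none of these motifs overlap each other in the 3 windows.
Itgam: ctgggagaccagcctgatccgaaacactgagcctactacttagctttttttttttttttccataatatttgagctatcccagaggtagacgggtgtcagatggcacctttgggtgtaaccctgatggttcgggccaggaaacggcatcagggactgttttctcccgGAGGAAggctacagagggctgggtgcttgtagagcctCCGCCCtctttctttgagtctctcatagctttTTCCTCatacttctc
Itga4: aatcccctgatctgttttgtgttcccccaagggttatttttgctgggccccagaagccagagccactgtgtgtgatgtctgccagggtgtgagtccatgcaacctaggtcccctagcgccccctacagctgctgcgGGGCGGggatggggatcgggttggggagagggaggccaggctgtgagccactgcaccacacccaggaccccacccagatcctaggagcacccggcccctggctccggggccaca
Icam1: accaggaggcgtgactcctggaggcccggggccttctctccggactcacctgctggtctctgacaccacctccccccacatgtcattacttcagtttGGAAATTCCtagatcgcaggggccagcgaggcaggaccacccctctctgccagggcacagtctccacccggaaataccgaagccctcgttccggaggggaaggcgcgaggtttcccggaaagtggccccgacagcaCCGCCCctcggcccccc
The 3 windows, in that order, are chr7:128062390-128062639, chr2:79255176-79255425 and chr9:21015690-21015939, all on the plus strand; that of Icam1 ends 46 bases before the gene start in the deposited table. Itgam held GAGGAA 84 to 79 bases before the start, the same motif on the opposite strand 15 to 10 bases before it, and a GC box on the opposite strand. Itga4 held 1 GC box and no other match. Icam1, a classical NF-kappaB target, held GGAAATTCC 153 to 145 bases before the start, and a GC box on the opposite strand 17 to 12 bases before it. Of 32851 promoters of the same length in the table, 0.286% held the NF-kappaB motif on either strand, 23.3% the PU.1 core, 32.7% the GC box and 12.4% the TATA box. Other forms of the NF-kappaB motif were not searched, so the 0.286% is the share of these letters alone. With only 1 form searched, that share does not measure how unusual the match in Icam1 is. These are matches of letters and say nothing of binding.

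Itgal, the alpha chain of LFA-1 (ENSMUSG00000030830, chromosome 7, 127296260 to 127335138, plus strand), was the least abundant of the 10, with 21.1, 17.1 and 16.8 CPM in the knockout libraries, against 11.3, 23.1 and 17.7 CPM in the control libraries. The control libraries alone spanned 2.05-fold and enclosed all 3 knockout libraries. The fold change was 0.080 on the log2 scale (SE 0.25, 95% interval -0.48 to 0.64). The values above 20 CPM stood in knockout replicate 1 and floxed control replicate 2, the libraries with the most B cell marker RNA of their groups. Ighm, the B cell immunoglobulin heavy chain, had 147.5 CPM in knockout replicate 1 and 246.4 CPM in floxed control replicate 2, and 19.7 to 49.7 CPM in the other 4. The part of B cell RNA in the Itgal values was not tested; without those libraries the log2 fold change of Itgal was 0.23. It was -0.15 without floxed control replicate 1 and -0.029 without knockout replicate 1.

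Itgb2, the beta chain shared by Mac-1 and LFA-1 (ENSMUSG00000000290, chromosome 10, 77530252 to 77565708, plus strand), had 2968, 2832 and 3003 CPM in the knockout libraries, against 2420, 2499 and 3076 CPM in the control libraries. The knockout libraries were close together, with a coefficient of variation of 3.09%, whereas that of the control was 13.4%. Floxed control replicate 3 exceeded every knockout library, so the groups overlapped. Knockout over control was 0.14 on the log2 scale (SE 0.14, 95% interval -0.16 to 0.44) and 0.26 without that replicate.

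Itgb1, the common beta chain of matrix-binding integrins (ENSMUSG00000025809, chromosome 8, 128685654 to 128733200, plus strand), had 1692, 1678 and 1752 CPM in the knockout libraries, against 1486, 1364 and 1786 CPM in the control libraries. It showed the same arrangement as Itgb2: tight knockout libraries (coefficient of variation 2.31%, against 14.1% in the control), with floxed control replicate 3 above them and the other control libraries below. Its log2 fold change was 0.14 (SE 0.14, 95% interval -0.16 to 0.45), and it ran from 0.064 to 0.26 with 1 library left out. The SD was larger in the control than in the knockout for 7 of the 10 genes, and for 53.8% of all tested genes.

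Itga6, the laminin-binding alpha chain (ENSMUSG00000027111, chromosome 2, 71745616 to 71858416, plus strand), had 2708, 2365 and 2440 CPM in the knockout libraries, against 2366, 2049 and 2588 CPM in the control libraries. The ranges overlapped, with knockout replicate 1 the highest of the 6 and floxed control replicate 2 the lowest. Its log2 fold change was 0.10 (SE 0.14, 95% interval -0.20 to 0.41). Without knockout replicate 1 and floxed control replicate 2, the libraries richest in B cell RNA, it was -0.043.

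Itga4, the alpha chain that binds VCAM-1 and fibronectin (ENSMUSG00000027009, chromosome 2, 79255426 to 79333123, plus strand), had 407.8, 378.8 and 336.0 CPM in the knockout libraries, against 444.6, 465.3 and 408.7 CPM in the control libraries. All 3 knockout libraries lay below all 3 control libraries, though narrowly at the nearest point, and with the authors' size factors the groups overlapped (knockout up to 7157 scaled counts, control down to 7138). The means were 374.2 ± 36.1 CPM in the knockout and 439.5 ± 28.6 CPM in the control (SD, n = 3 each), 85.1% of the control level. This is a log2 fold change of -0.23 (SE 0.13, 95% interval -0.52 to 0.052; edgeR quasi-likelihood adjusted p = 0.997). It had the smallest p of the 10 and did not pass. With 1 library left out it ran from -0.30 to -0.16. Of its exonic bases 8.04% overlap Cerkl on the opposite strand, which had a mean of 22.7 counts. Markers of small peritoneal macrophages and monocytes, cells in which Itga4 is also made, summed to 2337, 922 and 1865 CPM in the knockout libraries, against 2177, 2374 and 2205 CPM in the control libraries, with lower values in the knockout for 10 of the 13 tested markers and higher for 3. Of the 13, edgeR called 0, with 6 at an unadjusted p under 0.05 (46.2%, against 4.18% of all tested genes). The groups did not overlap for 5 of them (38.5%, against 9.33% of all tested genes), each lower in the knockout. Limma-voom called 0, and DESeq2 called 2, Ccr2 and Lyve1. Over all 12786 tested genes DESeq2 called 11 higher and 11 lower. The monocyte receptor Ccr2 had 20.5, 17.1 and 34.6 CPM in the knockout libraries, against 61.4, 121.9 and 54.4 CPM in the control libraries. Their part in the Itga4 values was not tested.

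**Figure D2:**
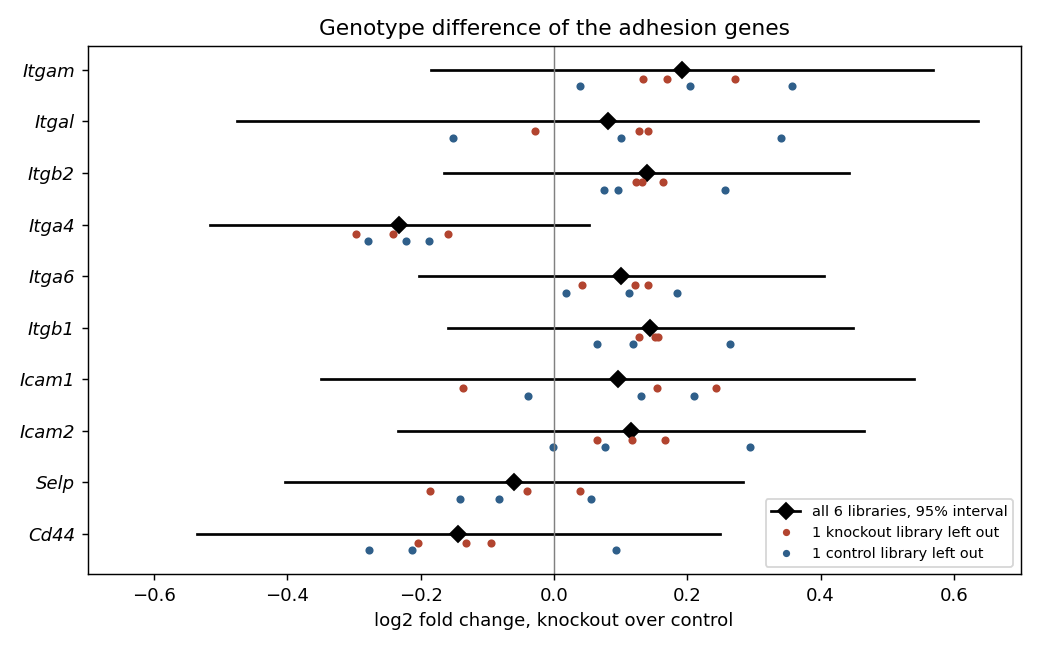
Log2 fold change of knockout over control for each adhesion gene (horizontal axis), with its 95% interval (black); dots give the value with 1 knockout library (red) or 1 control library (blue) left out. Every interval includes 0, and the dots stay on one side of 0 for Itgam, Itgb2, Itga4, Itga6 and Itgb1.

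Icam1, the inducible ligand of Mac-1 and LFA-1 (ENSMUSG00000037405, chromosome 9, 21015985 to 21028817, plus strand), had 813.4, 946.8 and 1342 CPM in the knockout libraries, against 1115, 776.4 and 1012 CPM in the control libraries. Knockout replicate 3 was the highest of the 6 and floxed control replicate 2 the lowest, and the groups overlapped widely. The log2 fold change was 0.10 (SE 0.20, 95% interval -0.35 to 0.54). It was -0.14 without knockout replicate 3 and -0.039 without floxed control replicate 2. The spread within groups, as an SD of log2 CPM, was 0.32 for Icam1, against 0.12 for Itga4 and a median of 0.20 over 7701 tested genes of at least 10 CPM. Of its exonic bases 11.7% overlap Gm47079 on the opposite strand.

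Icam2, the constitutive ligand that also marks large peritoneal macrophages (ENSMUSG00000001029, chromosome 11, 106377656 to 106388075, minus strand), had 636.6, 551.1 and 594.6 CPM in the knockout libraries, against 454.8, 516.4 and 673.8 CPM in the control libraries. The knockout libraries lay inside the control range. This gave a log2 fold change of 0.12 (SE 0.16, 95% interval -0.23 to 0.46), and -0.0010 without floxed control replicate 1.

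Selp, P-selectin, a lectin known from platelet granules and activated endothelium that binds PSGL-1 on leukocytes (ENSMUSG00000026580, chromosome 1, 164115264 to 164150026, plus strand), had 793.6, 950.7 and 700.5 CPM in the knockout libraries, against 979.3, 749.9 and 820.6 CPM in the control libraries. The groups were interleaved. A log2 fold change of -0.061 resulted (SE 0.16, 95% interval -0.40 to 0.28), and it was 0.055 without floxed control replicate 1 and 0.039 without knockout replicate 3. Markers that define platelets were near 0: Ppbp had 0.16 CPM or less, Gp9 0.36 CPM or less and Itga2b 2.09 CPM or less in every library. Clec1b was low but found in every library, at 0.569 to 2.25 CPM in the knockout and 1.16 to 3.71 CPM in the control. Pf4, a chemokine of platelets that macrophages also make, was the exception at 509 to 683 CPM in the knockout and 417 to 590 CPM in the control, and it made up nearly all of the sum of the 8 platelet markers, 513 to 685 CPM in the knockout and 420 to 593 CPM in the control, of which 4 (Gp9, Ppbp, Gp6 and Treml1) were at 0 in some library. The 8 endothelial markers summed to 57.5 to 92.3 CPM in the knockout and 46.3 to 61.3 CPM in the control, most of it Sele; 5 (Kdr, Tek, Egfl7, Robo4 and Esam) were at 0 in some library. Kdr reached 0.978 CPM and Vwf 1.97 CPM at most. Pecam1 was found in every library, at 2.02 to 6.17 CPM in the knockout and 0.737 to 9.91 CPM in the control. Gm16587 and Gm16548, on the strand opposite to Selp, overlap 4.21% and 9.93% of its exonic bases and had means of 258 and 118 counts, against 12641 to 19023 counts of Selp per library; without a stated strand setting their reads cannot be told apart there.

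Cd44, the hyaluronan receptor (ENSMUSG00000005087, chromosome 2, 102811141 to 102901665, minus strand), had 389.6, 410.7 and 452.9 CPM in the knockout libraries, against 600.5, 414.6 and 369.4 CPM in the control libraries. Floxed control replicate 1 stood above the other 5, which lay between 369.4 and 452.9 CPM. Its log2 fold change was -0.14 (SE 0.18, 95% interval -0.54 to 0.25), and it was 0.093 without that replicate.

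Levels were compared between genes as CPM per kilobase of gene length. Itgb2 was the highest, at 961 ± 29.7 per kilobase in the knockout and 873 ± 117 in the control (SD, n = 3 each), 49th of the 12786 tested genes. Itgb1 followed at 418 ± 9.67 and 379 ± 53.2. The next 5 formed a group whose neighbours overlapped between libraries: Icam2 (312 in the knockout and 288 in the control), Itga6 (277 and 259), Icam1 (237 and 222), Itgam (226 and 198) and Selp (185 and 193). The place of Itgam is uncertain, because 68.7% of its exonic bases are shared with Gm49368 and the handling of such reads is not stated. Itgb1 and Icam2 also overlapped in range, although Itgb1 was the higher within each of the 6 libraries. Cd44 stood apart at 61.7 in the knockout and 68.1 in the control, Itga4 at 26.8 and 31.4, and Itgal at 2.79 and 2.64. Itgb2, Itgb1, Cd44, Itga4 and Itgal held the same place in the order in every library.

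**Figure D3:**
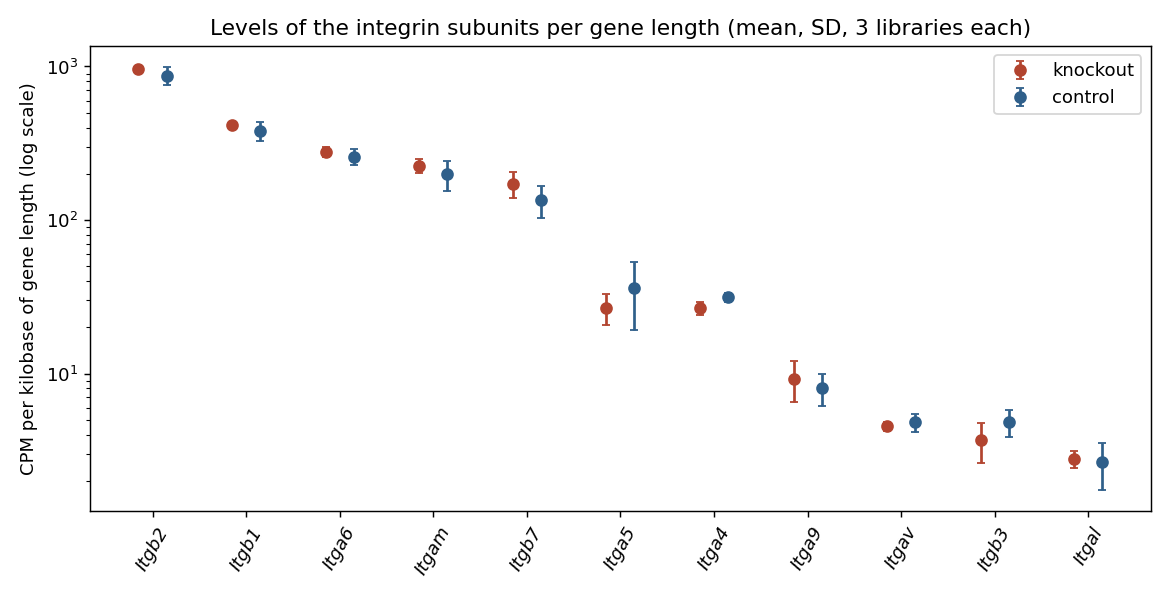
Mean CPM per kilobase (log axis; bars are SD, n = 3 each) of the 11 integrin subunits with at least 1 per kilobase in both groups, knockout (red, left) and control (blue, right). Itgb2, Itgb1, Itga6, Itgam and Itgb7 stand above 100 per kilobase, and Itgal, at 2.79 and 2.64, is the lowest shown. The level of Itgam is uncertain because most of its exonic bases are shared with Gm49368.

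The 4 alpha and 2 beta chains were also read as ratios of counts per kilobase within a library, which need no scaling between libraries. The Itgam to Itgb2 ratio was 0.240, 0.216 and 0.249 in the knockout libraries, against 0.253, 0.187 and 0.238 in the control libraries, within which the knockout lay. The size of this ratio carries the uncertainty of the exons that Itgam shares with Gm49368. The Itga6 to Itgb1 ratio was 0.663 ± 0.0523 in the knockout and 0.685 ± 0.0327 in the control (SD, n = 3 each). The Itgb2 to Itgb1 ratio was the steadiest, at 2.26 to 2.35 in the knockout and 2.18 to 2.45 in the control. The Itga4 to Itgb1 ratio was 0.0704, 0.0659 and 0.0560 in the knockout libraries, against 0.0874, 0.0996 and 0.0668 in the control libraries; floxed control replicate 3 fell between knockout replicates 1 and 2. Its log2 difference was -0.39 (SE 0.20; two-sided exact permutation p = 0.2, adjusted p = 0.8 over 8 ratios; 3 libraries against 3 allow no p below 0.1). Itga4 over Itga6 likewise had a log2 difference of -0.34 (SE 0.16, exact permutation p = 0.2, adjusted p = 0.8). Both stayed below 0 with any 1 library left out. The remaining 6 ratios, including Icam1 over Icam2 (0.765 ± 0.214 in the knockout and 0.795 ± 0.239 in the control), had exact permutation p-values of 0.6 to 0.9.

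**Figure D4:**
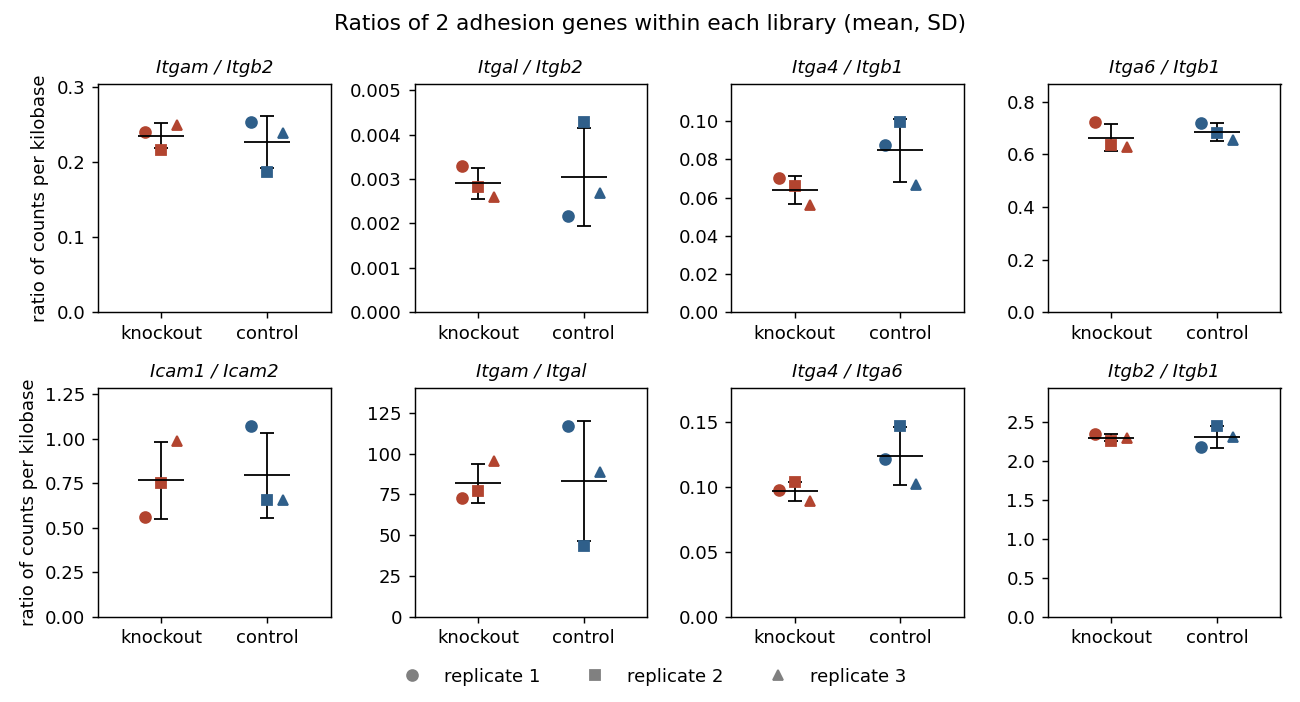
Ratio of counts per kilobase of 2 adhesion genes within each library (vertical axes start at 0), knockout libraries (left, red) and floxed control libraries (right, blue), with mean and SD; symbols mark the replicate number. The groups overlap in each of the 8 panels; for Itga4 over Itgb1 the knockout mean is 0.0641 and the control mean 0.0846.

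Across the 6 libraries, Itgam, Itgb2, Itga6, Itgb1 and Icam2 varied together, with Pearson correlations of log2 CPM from 0.655 (Itgam and Icam2) to 0.943 (Itgb2 and Icam2) over the pairs among them. Itga4 ran the other way from Itgb1 (-0.779) and Itgb2 (-0.713), and Cd44 from Icam2 (-0.834). These describe 6 libraries that share their scaling. Floxed control replicate 2 was the lowest of the 6 for 4 of the 10 genes, and the 10 together summed to 9627 CPM there, against 10886 to 11959 CPM in the other 5 libraries. Among 7502 protein-coding genes of at least 10 CPM, the pattern of Itgb2 was most like those of Sdf4 (Pearson r 0.994), Tma7 (0.993) and Pi16 (0.990). Itgb1 was most like Cyth1 (0.997), Cox7b (0.994) and Atp5l (0.993), and Icam1 most like Slc25a25 (0.989), Eif3c (0.980) and Puf60 (0.977). Selp was most like Ggcx (0.982), Ms4a8a (0.982) and Mib2 (0.981). With 6 libraries such values are common: 186 genes had an r above 0.9 with Itgb2, 178 with Itgb1, 73 with Selp and 56 with Icam1.

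Other genes of the same machinery were read from lists of known members. Of 15 other integrin subunits tested, 7 had higher and 8 lower values in the knockout, with 0 called and a median log2 fold change of -0.043. The most abundant was Itgb7, another partner chain of Itga4, at 581, 433 and 419 CPM in the knockout libraries, against 361, 294 and 464 CPM in the control libraries. Its log2 fold change was 0.36 (SE 0.19, edgeR adjusted p = 0.997), and its level per kilobase (172 in the knockout and 135 in the control) was above that of Itga4. Mast cells are known to carry Itgb7 too, and the 9 mast cell and eosinophil markers summed to 251, 171 and 140 CPM in the knockout libraries, against 74.2, 57.7 and 147 CPM in the control libraries. Both Itgb7 and that sum were highest in knockout replicate 1 and lowest in floxed control replicate 2, and floxed control replicate 3 was above knockout replicate 3 for both. Most of that sum was Hdc (216 CPM in knockout replicate 1 and 52.2 CPM in floxed control replicate 2). Some other markers of the sum were lowest elsewhere: Cpa3 in knockout replicate 3 (1.22 CPM) and Tpsb2 in floxed control replicate 1 (0 CPM). Both of these were also highest in knockout replicate 1 (6.40 and 9.13 CPM). The part of mast cell RNA in the Itgb7 values was not tested. At an unadjusted edgeR p under 0.05 stood 1 of the 15 other subunits (6.67%, against 4.18% of all tested genes), Itgb5. It had 2.18 ± 0.766 CPM in the knockout and 4.89 ± 2.14 CPM in the control (SD, n = 3 each). The log2 fold change of Itgb5 was -1.16 (SE 0.48). The fibronectin receptor chain Itga5 had 133 ± 30.1 CPM in the knockout and 178 ± 83.2 CPM in the control, and Itgax (CD11c) 0.903 and 1.63 CPM.

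Of 17 other selectins, selectin ligands and adhesion receptors tested, 11 had higher and 6 lower values, with 0 called by edgeR, 3 at an unadjusted p under 0.05, and a median log2 fold change of 0.027. DESeq2, which called 11 higher and 11 lower over all tested genes, called 1 of the 17, Lyve1. This hyaluronan receptor, also listed here as a small macrophage marker, had 28.2 ± 9.08 CPM in the knockout and 73.8 ± 42.6 CPM in the control (log2 fold change -1.39, SE 0.46). The junctional adhesion molecule Jam2 had 33.4, 33.6 and 44.2 CPM in the knockout libraries, against 27.5, 29.2 and 24.3 CPM in the control libraries, without overlap (log2 fold change 0.46, SE 0.16). Sele, E-selectin, had 60.7, 54.7 and 88.2 CPM in the knockout libraries, against 47.6, 33.8 and 58.8 CPM in the control libraries (log2 fold change 0.54, SE 0.23). Selplg, which encodes the P-selectin ligand PSGL-1, had 653 ± 59.7 CPM in the knockout and 565 ± 71.8 CPM in the control. Per kilobase it stood at 153 and 132, near Selp itself (185 and 193).

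Inside the cell, of 36 tested genes of integrin activation and the adhesion complex, 17 had higher and 19 lower values, with 0 called by edgeR, 2 at an unadjusted p under 0.05, and a median of -0.018. Talin (Tln1), which switches integrins on, had 1729 ± 89.1 CPM in the knockout and 1778 ± 161 CPM in the control, and kindlin-3 (Fermt3), its partner in blood cells, 535 ± 42.0 CPM in the knockout and 498 ± 52.1 CPM in the control. Tns1, a tensin that links integrins to actin, had 17.4, 27.6 and 22.6 CPM in the knockout libraries, against 95.2, 63.5 and 32.1 CPM in the control libraries. Its log2 fold change was -1.50 (SE 0.39, edgeR adjusted p = 0.997). DESeq2 called it, as the only gene of this list, among 11 lower genes over all tested genes. Of 13 membrane linkers and tetraspanins, 9 had higher and 4 lower values, with 0 called and a median of 0.065; moesin (Msn), the main such linker here, had 815 ± 85.1 CPM in the knockout and 779 ± 17.6 CPM in the control. Limma-voom called 0 genes in each of these lists.

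Of 16 tested matrix and soluble ligands, 7 had higher and 9 lower values, with 0 called by edgeR, DESeq2 or limma-voom, 0 at an unadjusted p under 0.05 by edgeR, and a median of -0.027. Fibronectin (Fn1), a ligand of Itga4 and Itga5, was the most abundant, at 47126 ± 5974 CPM in the knockout and 47871 ± 2028 CPM in the control (SD, n = 3 each). Thrombospondin (Thbs1) had 19744, 23981 and 21186 CPM in the knockout libraries, against 23052, 13535 and 15488 CPM in the control libraries (log2 fold change 0.32, SE 0.20). C3, whose fragments are bound by Mac-1, had 691, 1376 and 561 CPM in the knockout libraries, against 618, 466 and 539 CPM in the control libraries. Knockout replicate 2 alone was far above the rest, and the log2 fold change was 0.70 (SE 0.33, edgeR adjusted p = 0.997).

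The authors' deposited table holds their own test of knockout against control. In the authors' deposited table, an adjusted p under 0.05 was given to 22 genes, 9 higher and 13 lower, and 0 of the 10 adhesion genes were among them. The gene of smallest p among the 10 in the authors' deposited table was Itga4, with a log2 fold change of -0.24.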

How the data were processed

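PolyA RNA of sorted large peritoneal macrophages was measured in 6 libraries, 3 from PAC knockout and 3 from floxed control mice, all infected with E. coli. Per the submitters' processing notes, reads were aligned with HISAT2 2.0.5 to mm10 (GRCm38) and featureCounts 1.5.0-p3 gave the counts of each gene. No source used here gives the strand setting or the treatment of reads in shared exons. The deposited raw counts per gene entered the tests. FPKM, per the labels' protocols, was computed by the authors from read count and gene length. Also in the deposited table are a signal (the count divided by 1 size factor per library, as found from the values), its group means, and the authors' own p-values (raw and adjusted) and log2 fold changes. Gene start, end and length (other values in that table) equalled GENCODE M21 for all 10 adhesion genes.

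Here, edgeR 4.0.16 (R 4.3.3) kept 12786 genes with its default expression filter and scaled libraries by TMM. Its robust quasi-likelihood test had genotype as the only term, with Benjamini-Hochberg adjustment over all tested genes and a threshold of 0.05. SE and 95% intervals of a log2 fold change came from its F statistic. The fit was tested on simulated data. Of 100 genes changed 2-fold it recovered 63%, and of 100 changed 4-fold 96%, with 16 false calls beside them. Changes smaller than 2-fold were not simulated. Alternatives were library totals alone, DESeq2-type size factors, 2 other filters, DESeq2 1.42.0, limma 3.58.1 (voom with quality weights), no robust prior, a replicate block, each library left out, and a threshold of 0.1; leaving out 2 libraries with much B cell RNA was added after seeing the data. Ratios of 2 genes used counts per kilobase and a two-sided exact permutation test. No 2 libraries were within sampling noise (chi-square per gene at least 23.5). A count of 0 allows up to 0.154 to 0.19 CPM (3 counts), which covers counting error only.

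The adhesion genes and the lists were chosen with earlier results of these data known. Named were all 10 adhesion genes, the targeted gene, the 5 genes of smallest p in each other adhesion list, the 2 most abundant genes of each marker list, and the 3 genes most like each of Itgb2, Itgb1, Icam1 and Selp among protein-coding genes of at least 10 CPM. Not every gene so named is printed, and other genes named below were chosen for their level or role after their values were seen. Some genes are not reported here.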

Additional observations from a re-analysis of the deposited data

How the results depend on the processing

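None of the 10 adhesion genes was called by edgeR's quasi-likelihood test under any scaling, filter, threshold or left-out library tried. DESeq2 and limma-voom, run only with the default filter on all 6 libraries, called none of the 10 either. In no setting did any of the 10 have an unadjusted p under 0.05. Over all genes, where edgeR called 0 higher and 0 lower, it called 20 higher and 18 lower with no filter on low counts, and DESeq2 called 11 and 11. With 1 library left out the calls ran from 0 to 8 higher (5 without knockout 1, 8 without floxed control 3) and from 0 to 10 lower (2 without floxed control 1, 10 without floxed control 3), and leaving out both libraries rich in B cell RNA (knockout 1, floxed control 2) gave 4 higher and 0 lower. The cause was not tested.

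Itgam, Itgb2, Itga4 and Itgb1 kept the sign of their log2 fold change in each alternative, with ranges over left-out libraries of 0.039 to 0.36, 0.075 to 0.26, -0.30 to -0.16 and 0.064 to 0.26. Itga6 ran from 0.018 to 0.18 and was -0.043 without the 2 libraries rich in B cell RNA. Others changed sign with 1 library left out: Icam1 (-0.14 to 0.24), Icam2 (-0.0010 to 0.29), Itgal (-0.15 to 0.34), Selp (-0.19 to 0.055) and Cd44 (-0.28 to 0.093). Of the ratios (log2 difference), Itga4 over Itgb1 (-0.55 to -0.26), Itga4 over Itga6 (-0.47 to -0.21) and Itga6 over Itgb1 (-0.11 to -0.011) kept their sign. Icam1 over Icam2 (-0.26 to 0.18), Itgal over Itgb2 (-0.23 to 0.26), Itgam over Itgal (-0.33 to 0.38), Itgam over Itgb2 (-0.066 to 0.15) and Itgb2 over Itgb1 (-0.049 to 0.037) did not.

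Deviations from the group means gave no sign that replicate numbers pair the libraries. Same-numbered libraries correlated at -0.048, -0.0607 and 0.0847, and the others at -0.0505 to 0.107. By chi-square per gene, however, knockout replicate 3 and floxed control replicate 3 were the closest of all pairs (23.5). The closest pair within a group was knockout replicates 1 and 2 (29.39). The deposited column headers give knockout replicate 3 and floxed control replicate 3 consecutive numbers, higher than those of the other libraries. Knockout replicates 1 and 2 also have consecutive numbers there. What these numbers stand for is not stated in the labels used here. A factor shared by knockout replicate 3 and floxed control replicate 3 was not tested. With a replicate block edgeR called 0 genes in either direction and 0 of the 10, and the log2 fold change of Itga4 was -0.23. Depth limits Itgal most, at 219 to 398 counts per library.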
